A study of Mus musculus with 2 samples.

Results

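The 10 genes described here, Cldn5, Bsg, Slco1a4, Itm2a, Ly6c1, Flt1, Pltp, Slc2a1, Abcb1a and Esam, are genes of brain endothelial cells and the blood-brain barrier, read in long-read RNA sequencing of the mouse cortex. They were chosen by name, and every transcript model that the deposited tables assigned to them was used. All 10 were found, among 18907 annotated genes with a read, on 113 of 132801 models in replicate 1 and 105 of 133303 models in replicate 2. The tissue was the left cerebral cortex of adult B6NCrl mice (C57BL/6 in another label), aged 6 months, untreated as far as the labels say, with total RNA made into 2 libraries of 1 group. Both samples had 1 donor record in common, a label called the tissue male while another gave the sex as not collected, and nothing stated whether they were separate animals. Differences and standard deviations (SD) therefore measure only the spread between these libraries, which may be technical, and p-values set it against counting noise. No conditions were compared. The tissue was bulk cortex, so fewer cells of a type and less RNA per cell cannot be told apart.

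Endothelial cells of brain capillaries form the blood-brain barrier: tight junctions seal the gaps between cells, carriers bring nutrients across, and efflux pumps return many lipophilic compounds to the blood. Claudin-5 is the main tight junction protein of this endothelium, GLUT1 (Slc2a1) carries glucose into the brain, and P-glycoprotein (Abcb1a) is its best known efflux pump. Wnt signals from neural cells, received through frizzled receptors, induce and maintain the barrier, and VEGF signals through tyrosine kinase receptors that soluble FLT1 can block. Basigin, PLTP and GLUT1 are also known from other cells, such as glia and, for basigin, nearly all cells.

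Of the sequences of these genes, 3 carried the transcript results below and are shown here. The first is the join in Bsg-205, the leading basigin transcript, around a coding exon of 25 bases (mm10 chr10:79711256-79711280, plus strand) that 290 reads in replicate 1 and 240 in replicate 2 lacked as aligned. The second is the coding end of Flt1-203, the annotated soluble form, which runs past exon 13 into the next intron (mm10 chr5:147639130-147639224, minus strand). Both came from the GENCODE M21 transcripts. The last is the start of Abcb1a in RefSeq (GRCm38.p6 chr5:8566971-8567110, plus strand), close to which the reads began that reached the 5′ end of this gene. Capitals mark the 25-base exon in Bsg-205, the 95 bases found only in the soluble form up to its stop codon in Flt1-203, and the first 20 bases of the RefSeq transcript in Abcb1a.
Bsg-205: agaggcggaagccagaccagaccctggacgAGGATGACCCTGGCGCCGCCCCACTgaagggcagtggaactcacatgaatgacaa
Flt1-203: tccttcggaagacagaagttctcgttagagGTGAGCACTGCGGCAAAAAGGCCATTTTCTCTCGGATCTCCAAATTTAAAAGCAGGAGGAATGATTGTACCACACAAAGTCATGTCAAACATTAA
Abcb1a: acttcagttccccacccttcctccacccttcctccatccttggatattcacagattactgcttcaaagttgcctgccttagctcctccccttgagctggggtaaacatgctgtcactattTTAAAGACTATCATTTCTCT

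Replicate 1 held 1306424 reads and replicate 2 held 1304133 reads. Levels are given in CPM, reads per 1000000 reads of the library. A long read is counted once whatever its length, so CPM was not divided by transcript length, and genes were compared on this scale only. A single read was worth 0.765 CPM (replicate 1) or 0.767 CPM (replicate 2). A count of 0 allows up to 3 counts, or 2.30 CPM. Intervals are exact 95% Clopper-Pearson intervals, and they cover counting error only. The libraries were compared gene by gene over all 11838 genes with at least 10 reads, with a two-sided exact binomial test on the library totals, adjusted by the Benjamini-Hochberg method. That test sets 1 library against the other and has no replicates on either side. Calls needed an adjusted p under 0.05 together with a log2 ratio of 1 or more in size. On this basis 644 genes (5.44%) were lower in replicate 2 and 191 genes (1.61%) were higher.

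Together the 10 genes made up 1643 CPM of replicate 1 and 1481 CPM of replicate 2. Bsg alone gave 71.6% of these reads in replicate 1 and 69.5% in replicate 2. Without it, the other 9 genes held 610 reads in replicate 1 and 588 in replicate 2, which summed to 459 ± 11.3 CPM (SD, n = 2). In order of mean level came Bsg, Cldn5, Itm2a, Pltp, Slc2a1, Ly6c1, Slco1a4, Esam, Flt1 and Abcb1a. The ranges of neighbouring genes over the 2 libraries did not overlap at 4 steps of this order: Bsg stood above Cldn5, Cldn5 above Itm2a, Pltp above Slc2a1, and Flt1 above Abcb1a. These ranges leave out counting error. Single-exon models held 7 of 20 and 11 of 21 Flt1 reads, against 3 of 9 and 0 of 11 Abcb1a reads. The step from Flt1 to Abcb1a thus rests on counting these models. At the other 5 steps the ranges of neighbours overlapped, so the order of Itm2a and Pltp, and the order of Slc2a1, Ly6c1, Slco1a4, Esam and Flt1 from each gene to the next, was not set by these data.

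**Figure D1:**
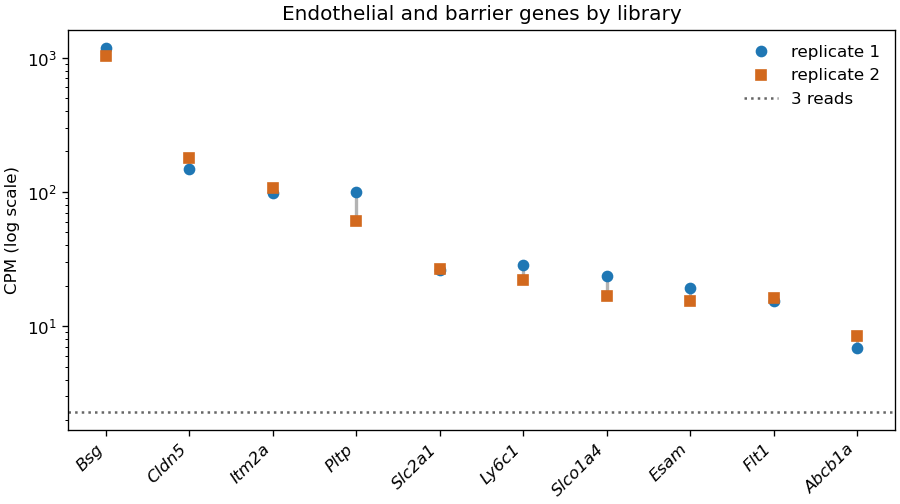
Level of each of the 10 genes in CPM on a log scale, with a circle for replicate 1 and a square for replicate 2 joined by a grey line. Bsg lies between 1030 and 1176 CPM, Abcb1a between 6.89 and 8.43 CPM, and every point is above the dotted line at 3 reads.

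None of the 10 genes was called between the libraries, against 5.44% of all genes tested called lower and 1.61% called higher in replicate 2. With no limit on size, 2 of the 10, Bsg and Pltp, were lower in replicate 2 at an adjusted p under 0.05, against 8.11% of all genes tested, and 0 were higher, against 4.72%. Pltp also passed on known transcripts alone and on models of 2 or more exons, and Bsg passed on neither. In these 2 settings the library totals were those of the counted reads alone. The members' median log2 ratio of replicate 2 to replicate 1 was -0.07, with 5 of 10 below 0, and the median over all genes tested was 0.00. The median absolute log2 ratio was 0.27 for the 10 genes and 0.36 for all genes tested. It was 0.28 for the 6612 genes with at least 50 counts, a depth that 7 of the 10 genes reached.

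Among the junction genes, Cldn5 (ENSMUSG00000041378.2, mm10 chr16:18776847-18778262, plus strand) had 195 reads in replicate 1 and 232 in replicate 2. Claudin-5 restricts the passage of small molecules between endothelial cells. Its level, 149 CPM and 178 CPM, had a mean of 164 ± 20.2 CPM (SD, n = 2). The log2 ratio of 0.25 did not pass the exact binomial test (adjusted p = 0.284). Esam (ENSMUSG00000001946.14, chr9:37528078-37538319, plus strand), an adhesion molecule of endothelial tight junctions and platelets, had 25 reads in replicate 1 and 20 in replicate 2. Its mean level was 17.2 ± 2.69 CPM (SD, n = 2), below the level of Cldn5 in both libraries. Its log2 ratio of -0.31 did not pass the exact test (adjusted p = 0.828).

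Basigin (Bsg, ENSMUSG00000023175.15, chr10:79704491-79711969, plus strand) is a membrane protein of the immunoglobulin family that escorts monocarboxylate transporters to the cell surface. It had 1536 reads in replicate 1 and 1343 in replicate 2, the highest count of the group in both libraries. Its level, 1176 CPM and 1030 CPM, had a mean of 1103 ± 103 CPM (SD, n = 2). Replicate 2 was lower by a log2 ratio of -0.19 (exact binomial test, adjusted p = 0.00521), a difference below the size limit. Counted on known transcripts alone, the ratio was -0.08 (exact test, adjusted p = 0.444), and on models of 2 or more exons it was -0.06 (exact test, adjusted p = 0.517). Those ratios use library totals of the counted reads alone. Bsg held 1185 known reads in replicate 1 and 1035 in replicate 2, 77.1% of its reads in both. Known reads of all annotated genes numbered 890995 and 823220, so the total of the known-transcript setting was itself lower in replicate 2.

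The carriers and pumps were read far less. Slc2a1 (ENSMUSG00000028645.11, chr4:119108711-119137983, plus strand) had 34 and 35 reads in replicates 1 and 2, a level of 26.4 ± 0.575 CPM (SD, n = 2). Slco1a4 (ENSMUSG00000030237.14, chr6:141805440-141856199, minus strand), an organic anion transporting polypeptide, had 31 and 22 reads, a level of 20.3 ± 4.85 CPM (SD, n = 2). Abcb1a (ENSMUSG00000040584.8, chr5:8660077-8748575, plus strand) had 9 and 11 reads, a level of 7.66 ± 1.09 CPM (SD, n = 2). With all models counted, Abcb1a was the lowest of the 10 genes in both libraries. The log2 ratios of these carriers were 0.04 for Slc2a1, -0.48 for Slco1a4 and 0.28 for Abcb1a. The exact test passed none of them, with adjusted p = 1.00, 0.599 and 0.893 in the same order.

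Pltp (ENSMUSG00000017754.13, chr2:164839518-164857711, minus strand) encodes phospholipid transfer protein, which moves phospholipids between lipoproteins. It had 130 reads in replicate 1 and 79 in replicate 2, which is 99.5 CPM against 60.6 CPM, with a mean of 80.0 ± 27.5 CPM (SD, n = 2). This was the widest relative gap between the libraries among the 10 genes when all models were counted. Its log2 ratio was -0.71 (exact binomial test, adjusted p = 0.00646), short of the size limit. On models of 2 or more exons the ratio of Pltp was -0.63 (exact test, adjusted p = 0.0174), and that of Abcb1a, 0.95, was wider but did not pass (exact test, adjusted p = 0.502). Ctsa lies on the opposite strand at the end of Pltp, and models on that strand that overlapped Pltp exons held 137 reads in replicate 1 and 116 in replicate 2. Over the exons of each other member, models on the opposite strand held at most 4 reads in a library. Whether strand could be mistaken for reads in the overlap was not tested.

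Of the surface proteins, Itm2a (ENSMUSG00000031239.5, chrX:107397099-107403376, minus strand), a BRICHOS-domain membrane protein enriched in brain endothelium, had 129 reads in replicate 1 and 139 in replicate 2. Its level was 103 ± 5.54 CPM (SD, n = 2), with a log2 ratio of 0.11 (exact test, adjusted p = 0.827). Ly6c1 (ENSMUSG00000079018.10, chr15:75044018-75048830, minus strand), a GPI-anchored antigen of endothelial and myeloid cells, had 37 reads in replicate 1 and 29 in replicate 2. This gave 25.3 ± 4.30 CPM (SD, n = 2) and a log2 ratio of -0.34 (exact test, adjusted p = 0.712). Flt1 (ENSMUSG00000029648.13, chr5:147561604-147726011, minus strand) encodes VEGF receptor 1, which binds VEGF-A, VEGF-B and PlGF. Replicates 1 and 2 held 20 and 21 of its reads, a level of 15.7 ± 0.561 CPM (SD, n = 2), with a log2 ratio of 0.07 (exact test, adjusted p = 0.988). Counts of Slc2a1 and Flt1 differed by a single read between the libraries.

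Some of these genes have near copies that could share reads. Ly6c1 and Ly6c2 transcripts were 97.6% identical over 822 bases, and Ly6c2 was at 0 reads in both libraries, so reads listed for Ly6c1 could hold some of Ly6c2. Slco1a4 aligned with Slco1a5 at 89.1% over 2150 bases, and Slco1a5 had 1 read in replicate 1 and 0 in replicate 2. Abcb1b, the second P-glycoprotein gene, was 87.7% identical to Abcb1a over 4000 bases and had 7 reads in replicate 1 and 10 in replicate 2. The level of Abcb1b, 6.51 ± 1.63 CPM (SD, n = 2), overlapped that of Abcb1a. No other gene aligned with a member at 85% or more over at least 200 bases, apart from other genes and gene models near Slco1a4 (Slco1a1, Slco1a6, Gm5724 and Gm6614), which were all at 0 reads.

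The share of reads that follow an annotated transcript ranged widely among the members. Reads are classed in the deposited tables by their chain of introns. A known read matches an annotated transcript, an incomplete match (ISM) follows part of an annotated chain, a new combination (NIC) joins annotated splice sites in another way, and a new splice site read (NNC) uses at least 1 site outside the annotation. Genomic reads overlap the gene without following its splicing. Known reads made up 98.5% ± 1.47 of Cldn5 reads and 94.0% ± 2.43 of Itm2a reads (SD, n = 2). The share was 81.5% ± 9.19 for Esam, 77.1% ± 0.0581 for Bsg, 75.4% ± 4.22 for Ly6c1 and 75.2% ± 2.48 for Pltp. It was 32.0% ± 8.85 for Slc2a1, 17.0% ± 2.86 for Flt1, 6.16% ± 4.15 for Slco1a4 and 5.56% ± 7.86 for Abcb1a. Among all reads of annotated genes, 71.9% in replicate 1 and 67.7% in replicate 2 were known. Fisher's exact test between the libraries called 0 of the 9 members with at least 20 reads in each, and 8.76% of 6644 genes tested were called. Adjusted p ranged from 0.526 for Cldn5 to 1.00.

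**Figure D2:**
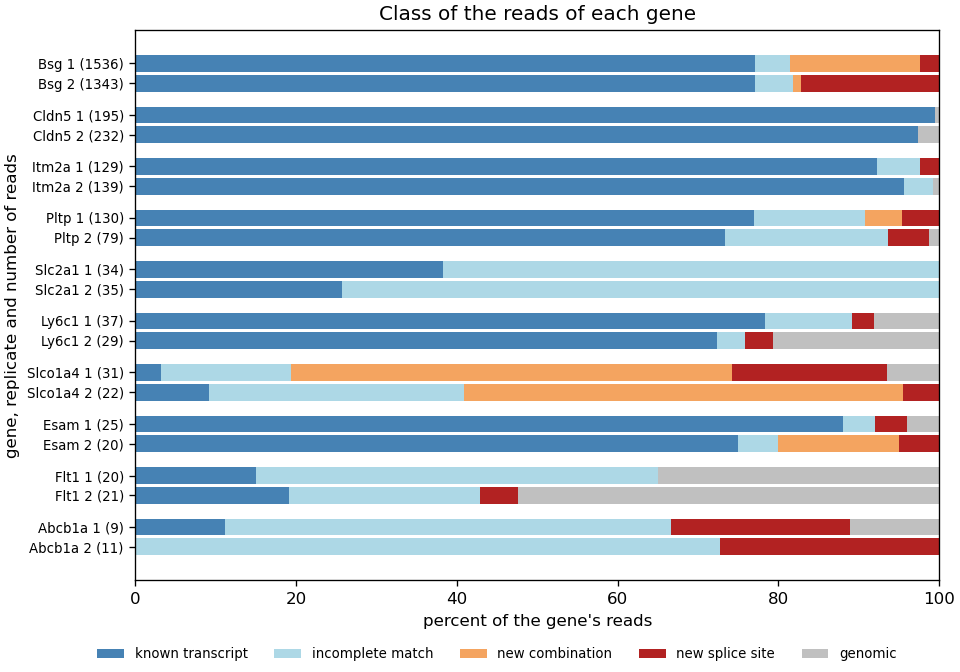
Percent of each gene's reads in 5 classes, with a bar for each library and the number of reads in brackets. Cldn5 and Itm2a bars are nearly all known reads, Slc2a1 bars are mostly incomplete matches (21 of 34 and 26 of 35 reads), and Bsg has 248 new-combination reads in replicate 1 and 230 new splice site reads in replicate 2, of which 245 and 200 are 1 chain classed differently in the libraries.

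Known share was lower for longer transcripts. Over all genes with at least 20 reads in each library, the median known share was 93.3% for 446 genes whose longest coding transcript was under 1000 bases. It was 52.6% for 1099 genes of 3000 to 4000 bases and 3.84% for 529 genes of 7000 bases or more. Cldn5, at 1416 bases, had a higher share than 96.6% of the 1527 genes of 1000 to 2000 bases. Cldn5 has a single exon, so its reads have no chain of introns to match in part. Its rank among genes of any number of exons therefore does not measure how complete its reads were. Itm2a, at 1744 bases, was above 87.6% of the same genes. Slco1a4, at 3823 bases, was above only 8.01% of genes of 3000 to 4000 bases, and Ly6c1, at 844 bases, above 12.8% of genes under 1000 bases. Flt1, with 6895 bases, was at the middle of its range, with 51.0% of 637 genes below it.

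**Figure D3:**
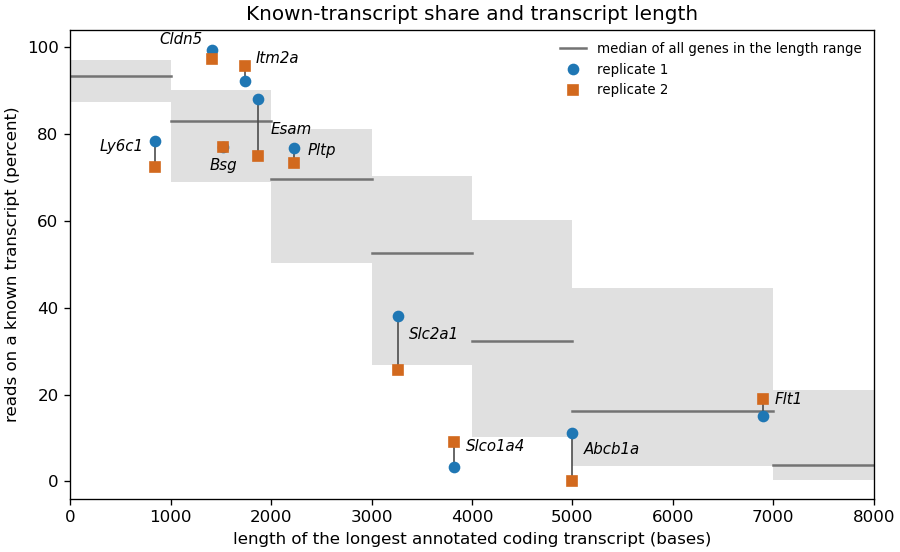
Percent of reads on a known transcript against the length of the longest annotated coding transcript in bases, with circles for replicate 1 and squares for replicate 2. Grey lines and bands give the median and quartiles of all genes in each length range. Slco1a4 lies far below the band of its range (26.9% to 70.3%), while Cldn5, a single-exon gene, lies above its band.

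Of the known transcripts, Bsg-205 led basigin with 1170 of 1185 known reads in replicate 1 and 1021 of 1035 in replicate 2. Its share was 98.7% ± 0.0614 (SD, n = 2). Bsg-202, which starts at another first exon, had 12 and 11 reads. Bsg-201 has an extra coding exon of 348 bases (chr10:79708697-79709044) known from the long basigin form of the retina, and it had 3 reads in each library. That exon was included in 3 of 1457 informative reads in replicate 1 and 3 of 1267 in replicate 2, or 0.221% ± 0.0218 (SD, n = 2). For Pltp, Pltp-201 had 93 of 100 known reads in replicate 1 and 52 of 58 in replicate 2, and Pltp-202, with another 5′ end, had 7 and 6. For Ly6c1, Ly6c1-201 had 23 of 29 known reads and 19 of 21, and Ly6c1-202 had 4 and 1. Fisher's exact test of the leading share called 0 of these 3 genes (adjusted p = 1.00 for each), where 1.75% of 2572 genes tested were called. Cldn5, Itm2a, Slc2a1, Esam and Flt1 each had known reads on 1 transcript only.

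Basigin had a second frequent intron chain, as aligned, that no annotated transcript holds. This 6-exon chain took 245 reads of replicate 1 and 200 of replicate 2, or 16.0% (14.2% to 17.9%) and 14.9% (13.0% to 16.9%) of Bsg reads. The intervals of the libraries overlap. By reads it was number 13 among 9369 intron chains outside the annotation that were found in both libraries. The chain leaves out the 25-base exon printed above and begins the last exon 28 bases upstream of its annotated start, at position 79711466. The deposited tables class this same chain as a new combination in replicate 1 and as a new splice site in replicate 2, so these classes of Bsg cannot be compared between the libraries. Another 6-exon chain, of 13 and 12 reads, was classed the opposite way. Position 79711466 is not an acceptor of the M21 annotation.

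Over all Bsg reads that crossed into the last exon, 1223 of 1514 in replicate 1 and 1087 of 1329 in replicate 2 came from the 25-base exon, or 81.3% ± 0.715 (SD, n = 2). The join to position 79711466 had 267 and 215 reads, or 16.9% ± 1.03 (SD, n = 2). A join from 20 bases past the exon upstream to 6 bases before the last exon had 14 and 16 reads, or 1.06% ± 0.197. A join to 26 bases before the last exon had 4 reads in each library. The first of these joins adds 28 bases in place of 25, a difference of 3 bases or 1 codon. Of the reads that skipped the 25-base exon between these same exons, 290 in replicate 1 and 240 in replicate 2, 92.1% and 89.6% carried 28 bases in its place, and 19 and 20 reads carried 26. The lengths in place of the exon ran from 6 to 44 bases over 13 different joins. Inserts were thus nearly all within 3 bases of the length of the 25-base exon. Whether the inserted bases are those of the 25-base exon placed at another position was not tested, since the genome sequence of the intron was not used here.

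**Figure D4:**
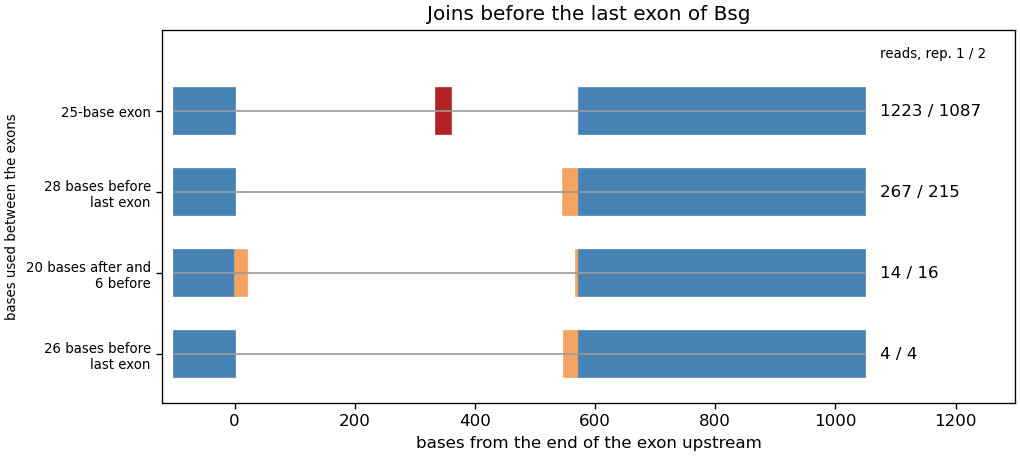
The 4 most used joins before the last exon of Bsg, drawn to scale in bases from the end of the exon upstream, with annotated exons in blue, the 25-base exon in red and bases outside the annotated exons in orange. The 25-base exon carries 1223 and 1087 reads, the 28 bases before the last exon carry 267 and 215, and the remaining joins carry at most 16.

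At its 5′ end, Bsg was uniform. The first exon of Bsg-205 with its annotated donor opened 1447 reads in replicate 1 and 1253 in replicate 2, or 94.2% and 93.3% of the gene's reads. The first exon of Bsg-202 opened 21 and 18 reads. A later donor in the first exon, at position 79704628, had 6 reads in replicate 1 and 8 in replicate 2 in a 7-exon chain of its own. The annotated introns took 96.4% of Bsg intron crossings in replicate 1 and 96.5% in replicate 2.

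Flt1 reads lay over parts of the soluble and the membrane-bound form. Flt1-203, of 13 exons and 6292 bases, continues exon 13 into the intron and so lacks the membrane and kinase parts, while Flt1-202 has 30 exons. All known Flt1 reads, 3 in replicate 1 and 4 in replicate 2, were on Flt1-203. Reads over the 4066 bases found only in the soluble form numbered 6 in replicate 1 and 9 in replicate 2. Of these, 3 in replicate 1 and 5 in replicate 2 were spliced. The other 3 and 4 were unspliced reads, in a stretch that is an intron of the membrane form. Reads over exons 14 to 30, found only in the membrane form, numbered 9 and 8. Exon 30 was covered by 8 reads in each library, and exons 14 to 25 had no read in replicate 2. Of those over the membrane exons, 6 in replicate 1 and 1 in replicate 2 were spliced, and the rest were unspliced reads. The join of exon 13 to exon 14 was crossed by 2 reads in replicate 1 and 0 in replicate 2. No read was on Flt1-202 as annotated. At these counts the forms were not compared between the libraries by a test.

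Slco1a4 was led by a chain outside the annotation. This chain of 16 exons and 3737 bases had 17 of 31 reads in replicate 1, or 54.8% (36.0% to 72.7%). In replicate 2 it had 9 of 22 reads, or 40.9% (20.7% to 63.6%). The intervals overlap. Each of its introns is annotated, in other combinations. It matches Slco1a4-203, of 17 exons, except that it skips a 114-base exon (chr6:141852205-141852318) upstream of the coding start at position 141845468. Of the reads across that place, 23 of 24 in replicate 1 and 15 of 16 in replicate 2 skipped the exon. Among the 8 members with at least 20 reads in each library and a spliced chain, only Slco1a4 had a leading chain outside the annotation. Of all 6331 such genes, 655 (10.3%) had such a leading chain.

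Abcb1a was read mainly at its 3′ end. The last exon of Abcb1a-201, a transcript of 28 exons and 4997 bases, was covered by 7 of 9 reads in replicate 1 and 8 of 11 in replicate 2. Exons 3 to 7 had no read in either library. The exons before them were read on 1 chain of 4 exons, with 2 reads in replicate 1 and 3 in replicate 2. It began at position 8567119 in replicate 1 and 8567064 in replicate 2, within 28 bases on either side of the RefSeq start at 8567091. The M21 annotation starts the gene at 8660077, which is 92986 bases farther downstream. The chain's second exon of 45 bases (chr5:8605296-8605340) and the donor of its first exon are outside M21. It then joined exons 1 and 2 of the M21 gene and ended at position 8660732, so no read tied this start to the later exons. With 5 reads over both libraries, it is described and not compared.

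Slc2a1 reads thinned from 3′ to 5′. The last exon of Slc2a1-201, of 10 exons and 3260 bases, was covered by all 34 reads in replicate 1 and all 35 in replicate 2. Exon 5 was covered by 19 reads and 15 reads, and exon 1 by 13 and 9. All intron crossings of Slc2a1 were on annotated introns. By contrast, exon 1 of Itm2a, of 6 exons and 1744 bases, was covered by 122 of 129 and 134 of 139 reads, and exon 1 of Esam-201 by 23 of 25 and 16 of 20.

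**Figure D5:**
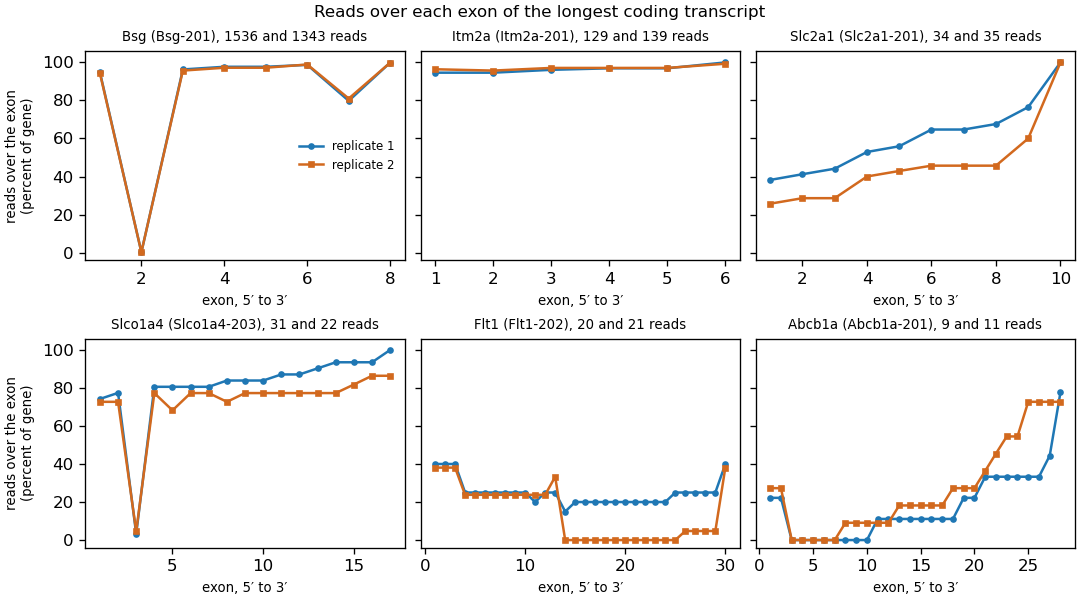
Percent of each gene's reads that overlap each exon of its longest coding transcript, from 5′ to 3′, with circles for replicate 1 and squares for replicate 2. Bsg and Itm2a are covered throughout except for the 348-base exon of Bsg and a drop to 79.8% and 81.0% at its 25-base exon, while Slc2a1 and Abcb1a fall toward the 5′ end and the 114-base exon of Slco1a4 dips to 1 read in each library.

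Internal exons were measured where each library had 20 or more informative reads. Those of Itm2a (4 of 4), Ly6c1 (2 of 2) and Esam (3 of 3) were included in at least 95% of reads in both libraries. So were 4 of 6 in Bsg, apart from the 25-base and 348-base exons, and 14 of 15 in Pltp. The remaining Pltp exon, of 87 bases (chr2:164855328-164855414), was included in 0 of 114 reads and 0 of 61. Cldn5 has a single exon, and a 2-exon model inside it (a gap of 910 bases, chr16:18776975-18777884) had 1 read in replicate 1 and 6 in replicate 2. That gap begins before and ends after the coding sequence, so it removes all of it.

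General endothelial markers ran from single reads to the mean level of Cldn5, which Ly6e alone reached (167 ± 61.5 CPM, SD, n = 2). Ly6e was above Cldn5 in replicate 1 (275 against 195 reads) and below it in replicate 2 (161 against 232 reads). The next, Egfl7, was at 70.9 ± 1.54 CPM. All 25 genes of the endothelial identity list had a read and 15 had enough reads for the test. Egfl7, a secreted endothelial protein, had 94 reads in replicate 1 and 91 in replicate 2, the scaffold gene Slc9a3r2 had 64 and 56, and Ly6e had 275 and 161. Pecam1 had 11 and 13 reads, Kdr 4 and 4, Tek 0 and 3, and Cdh5, the endothelial cadherin, 1 and 0. The list summed to 714 reads or 547 CPM in replicate 1 and 435 reads or 334 CPM in replicate 2. Much of this gap lay in Igfbp7, given below, and in Ly6e, whose log2 ratio of -0.77 was short of the size limit (exact test, adjusted p = 1.53e-06). Its median log2 ratio was -0.25, against 0.00 for all genes tested. Of the 15 tested, 3 genes were called lower, against 5.44% of all genes tested, and 0 higher, against 1.61%. Those 3 were Igfbp7 with 90 and 7 reads (log2 ratio -3.59, exact test, adjusted p = 1.30e-17), the shear-stress transcription factor Klf2 with 34 and 2 reads (log2 ratio -3.78, exact test, adjusted p = 5.94e-07), and Klf4 with 10 and 0. Klf4 was at least 3.33-fold lower in replicate 2, set against 3 counts there, with adjusted p = 0.0194 in the exact test. The richest 100-base window of these transcripts held 82.0% G and C in Igfbp7 and 86.0% in Klf2 and Klf4. It held 81.0% in Slc9a3r2, which was not called (log2 ratio -0.19). Over the called genes of the lists below, it ran from 66.0% in Hbb-bs to 89.0% in Vegfb. The median of that measure was 83.0% over 643 of the 644 genes lower in replicate 2, and 73.0% over all genes tested. In the 10 barrier genes it ran from 53.0% in Slco1a4 to 77.0% in Flt1. The part of base composition in these ratios was not tested.

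Partner genes gave further values, with the reads of replicate 1 before those of replicate 2, and none of them was called higher in replicate 2. Over all genes tested, 5.44% were called lower and 1.61% higher. Few genes were tested in each list, so the counts of calls are not results about the lists. Of 12 junction genes, 8 were tested, with a median log2 ratio of 0.14, and 1 was called lower, the scaffold gene Afdn with 43 and 15 reads (log2 ratio -1.49, exact test, adjusted p = 0.00417). Ctnnb1, which encodes beta-catenin, had 115 and 149 reads, Cldn12 15 and 22, and the scaffold gene Tjp1 12 and 12. Among 13 other claudin genes, the glial Cldn11 (196 ± 41.5 CPM, SD, n = 2) and Cldn10 (178 ± 6.28 CPM) had ranges over the libraries that overlapped that of Cldn5. Cldnd1 was at 118 ± 1.77 CPM. Cldn1, Cldn2, Cldn4, Cldn9, Cldn15 and Cldn19 were at 0 reads, and none of the 4 tested was called (median log2 ratio -0.02).

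Of 22 other barrier transporters, all had a read and 18 were tested, with a median log2 ratio of 0.02. The heavy chain of amino acid exchangers, Slc3a2, led with 234 and 228 reads, ahead of the zinc carrier Slc39a10 with 113 and 172, the taurine carrier Slc6a6 with 59 and 81 and the efflux pump Abcc5 with 73 and 61. The glutamine carrier Slc38a3 was the only call among the 18 tested, with 59 and 24 reads (log2 ratio -1.28, exact test, adjusted p = 0.00226). Of 8 other glucose transporters, 6 were tested and none was called (median log2 ratio 0.25). The neuronal Slc2a3 had 49 and 47 reads, a level of 36.8 ± 1.04 CPM (SD, n = 2), above Slc2a1 in both libraries. Slc2a8 had 41 and 47 reads, Slc2a13 25 and 31, and Slc2a6 32 and 21.

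Basigin's partners were read at very unequal levels. Ppia, the gene of cyclophilin A, a ligand of basigin, had 3075 and 2733 reads. The relatives of basigin were lower, with Nptn at 133 and 137 reads and Emb at 42 and 47. Of the monocarboxylate transporters it escorts, Slc16a1 had 17 and 18 reads and Slc16a3 7 and 3, and of the other family genes Slc16a7, which pairs mainly with embigin, had 15 and 19. Slc16a8 was at 0. None of the 6 tested was called, and their median log2 ratio was 0.06.

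In the VEGF pathway, only Vegfb and Nrp1 of 9 genes had enough reads for the test, with a median log2 ratio of -0.66. Vegfb, a ligand of Flt1, had 194 reads in replicate 1 and 89 in replicate 2 and was called lower (log2 ratio -1.12, exact test, adjusted p = 1.48e-08). The co-receptors Nrp1 (14 and 12 reads) and Nrp2 (5 and 4) and the ligand Vegfa (3 and 5) were low. In the barrier Wnt pathway 5 of 16 genes were tested, with a median log2 ratio of -0.57. Tspan12, a co-activator of frizzled-4, had 65 and 95 reads, the ligand Wnt7b 21 and 14, and the ligand Ndp 16 and 10. The co-receptor Lrp6 was called lower with 20 and 5 reads (log2 ratio -1.90, exact test, adjusted p = 0.0352). Fzd4 had 0 and 7 reads and Lrp5 none.

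Itm2b and Itm2c were far more abundant than Itm2a, while the other Ly6 family genes lay on both sides of Ly6c1 by mean level. Itm2b had 2547 and 2776 reads, a level of 2039 ± 127 CPM (SD, n = 2). Itm2c, with 1209 and 593 reads, was called lower (log2 ratio -1.02, exact test, adjusted p = 6.00e-46). Of 9 other Ly6 family genes, 5 were tested, with a median log2 ratio of -0.77. Ly6h, a neuronal member, was called lower with 534 and 242 reads (log2 ratio -1.14, exact test, adjusted p = 4.21e-24). Ly6e had 275 and 161 reads, Lypd1 167 and 187, and Lynx1 100 and 82. Below the mean level of Ly6c1 were Ly6a with 37 and 17 reads, Ly6g6e with 4 and 4, Ly6d with 1 and 0, and Ly6c2 and Ly6k with none.

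Markers of other cells of the cortex were read as follows, and calls among them again stand beside 5.44% of all genes tested called lower and 1.61% called higher. All 13 mural cell markers had a read, with a sum of 133 and 131 CPM, led by Vtn with 94 and 79 reads and Rgs5 with 26 and 46. The 9 fibroblast markers summed to 234 and 161 CPM, led by Igfbp2 (117 and 88 reads), and 0 of 6 tested were called. Choroid plexus markers summed to 63.5 and 42.2 CPM, nearly all of it Ttr with 73 and 46 reads, and Aqp1 was at 0. Red blood cell markers summed to 38.3 and 17.6 CPM, with Alas2 at 0 and Hbb-bs called lower (23 and 5 reads, log2 ratio -2.09, exact test, adjusted p = 0.0103). All markers had reads in the lists of astrocytes (8 genes, 1388 and 1594 CPM), microglia (9 genes, 939 and 1049 CPM), neurons (8 genes, 5807 and 5453 CPM) and oligodendrocytes (6 genes, 4991 and 4598 CPM). Slc17a7, a marker of excitatory neurons, was the only call among these 4 lists, with 130 and 36 reads (log2 ratio -1.84, exact test, adjusted p = 5.72e-12). Of these lists, only those of astrocytes and microglia had a higher sum in replicate 2. All the others had a lower sum, as had Pltp, and the part of any of these cells in the ratio of Pltp was not tested.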

How the data were processed

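The values used were read counts per transcript model, deposited by the authors for each library, with no normalization. Per the file headers, the tables also give other values, the exons and length of each model, and the deposited annotations give the positions of models made by TALON on mm10 with GENCODE M21. For the aligner and the TALON version, not given in the sources used here, nothing is stated. Counts of all models of a gene were summed with Python 3.11.15 (pandas 2.3.3, scipy 1.17.1) and scaled to CPM. The log2 ratios have 0.5 counts added. Genes with at least 10 counts entered the exact binomial test, and those with at least 20 reads in each library entered Fisher's exact tests. The tests were tried on simulated data with known changes. With 1 group of 2 libraries, edgeR 4.0.16 and DESeq2 1.42.0 gave normalization factors only. Intron chains were matched between libraries by position. Near copies were searched with blastn 2.17.0. RefSeq promoters matched 8 of 10 genes. The members and gene lists were chosen with earlier results of these data known. Named genes are the members, the most abundant genes of each list (up to 4, fewer for other cell types) and every called gene. Pecam1, Kdr, Tek, Cdh5, Fzd4, Ly6a, Ly6g6e, Ly6d and the genes at 0 reads were added after their values were seen. A junction gene that this rule takes is not reported here.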

Additional observations from a re-analysis of the deposited data

How the results depend on the processing

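No member was called under total counts, TMM or DESeq2 factors, a total without mitochondrial genes, no filter or at least 50 counts, 1 count added, known transcripts alone or models of 2 or more exons alone, among those tested. Not tested were Esam, Flt1 and Abcb1a at 50 counts, Slco1a4, Flt1 and Abcb1a on known transcripts, and Cldn5, a single-exon gene, on models of 2 or more exons. Without the size limit, 2 members were called lower, and 559 genes were higher and 960 lower in replicate 2. Genes higher in replicate 2 numbered 117 of the 6612 genes with at least 50 counts, where the main setting gave 191 of 11838. On known transcripts alone they numbered 102. The share of known reads differed in 206 of 5196 genes when only models of 2 or more exons were counted, against 582 of 6644 genes on all reads. The settings thus differ in the number of genes tested, and the cause of these changes was not tested. Over 46 recomputed member ratios, 3 changed sign, in Slc2a1 (-0.39 on known transcripts, -0.18 on models of 2 or more exons) and Flt1 (-0.24 on models of 2 or more exons), none past the test. On models of 2 or more exons the ratio of Abcb1a moved from 0.28 to 0.95 (exact test, adjusted p = 0.502). On known transcripts alone, levels dropped to 8.43 CPM for Slc2a1, 2.68 for Flt1, 1.15 for Slco1a4 and 0.383 for Abcb1a. Unlike the ratios of that setting, these levels were scaled to all reads of the library. Leaving out a library leaves no comparison between libraries. No paired analysis was possible because the labels give 1 group. Adding incomplete matches to their annotated transcript was not run, since the tables give these models identifiers of their own. For members of under 40 reads in a library, the depth limits each share to the wide intervals above.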
